A study of Caenorhabditis elegans with 16 samples.

Results

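The genes described here are the 410 that were listed in both deposited tables of fasted against fed *Caenorhabditis elegans*, of which the first table holds worms kept at 20°C (basal, 2666 genes) and the second worms given a heat shock at 35°C (1442 genes). They make up 15.4% of the basal table, 28.4% of the heat shock table and 410 of the 3698 genes in either table. For each gene the fasted over fed log2 ratio was computed at both temperatures from the raw read counts of all 16 libraries, and the difference between these ratios, heat shock minus basal, is called the interaction. Genes were grouped by whether the ratio had the same sign at both temperatures. Each table was filtered by the authors at a p of 0.05, before adjustment, for fasted against fed worms, so a gene whose ratios have opposite signs had to differ between the temperatures. The direction groups and the interactions of their genes are therefore given as a description, whereas the mean effect of heat over fed and fasted worms did not enter the choice of genes.

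All worms were N2 wild type, grown on OP50 bacteria at 20°C, and RNA came from whole animals. The fed worms had food throughout, while the fasted worms were taken off food at the mid-L4 larval stage for 24 h. Heat shock lasted 30 min at 35°C, and the basal worms stayed at 20°C, with 4 libraries in each of the 4 groups. The deposited protocol mentions a day of recovery between fast and heat shock, whereas the study's account of its results has these worms collected right after the fast and the heat shock, so that the time since the fast is uncertain. The labels do not say whether libraries of the same group stem from separate cultures, and p-values then measure the spread between libraries, which may be technical.

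A worm without food loses its supply of nutrients through the intestine, and the intestine is the main site of peptide uptake, fat storage and yolk synthesis. Heat shock activates the transcription factor HSF-1, which drives genes of chaperones, while many other transcripts decline. Genes whose response to fasting was present at 1 temperature only are outside the 410, since each table kept genes with a response.

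The libraries held 15859001 to 26398842 reads, and the 410 genes took 1.55% to 2.36% of them. Levels are given as CPM, reads of a gene per 1e6 scaled reads of its library, and are compared between libraries of 1 gene only. The counts carry no stated strand, and 89 of the 410 genes overlap a coding gene on the other strand, so that reads from the shared stretch cannot be told apart. RefSeq gave names for 407 of the genes, and 401 are protein coding.

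The direction of the fasting effect was the same at both temperatures in 380 of the 410 genes (92.7%). The larger group of 242 genes was higher in fasted worms at both temperatures, with a median log2 ratio of 0.88 at 20°C and 0.75 after heat shock. A further 138 genes were lower in fasted worms at both, with medians of -0.94 and -1.02. The remaining 30 genes (7.32%) had opposite directions, and 22 of them were higher in fasted worms at 20°C but lower after heat shock, with medians of 0.87 and -0.95. The other 8 were lower at 20°C and higher after heat shock, with medians of -0.99 and 0.54. In whole worms, fewer cells of a type and less RNA per cell cannot be told apart. The ratios nearest 0 among all members were 0.21 at 20°C and 0.16 after heat shock in absolute value, and among the 30 genes they were 0.28 and 0.32. Scaling by TMM over the shared genes, most of which were higher in fasted worms, lowered the median ratio by 0.31 at 20°C and by 0.19 after heat shock, and left 238 of the 242 and all 138 genes in their direction and the 30 genes as they were.

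**Figure D1:**
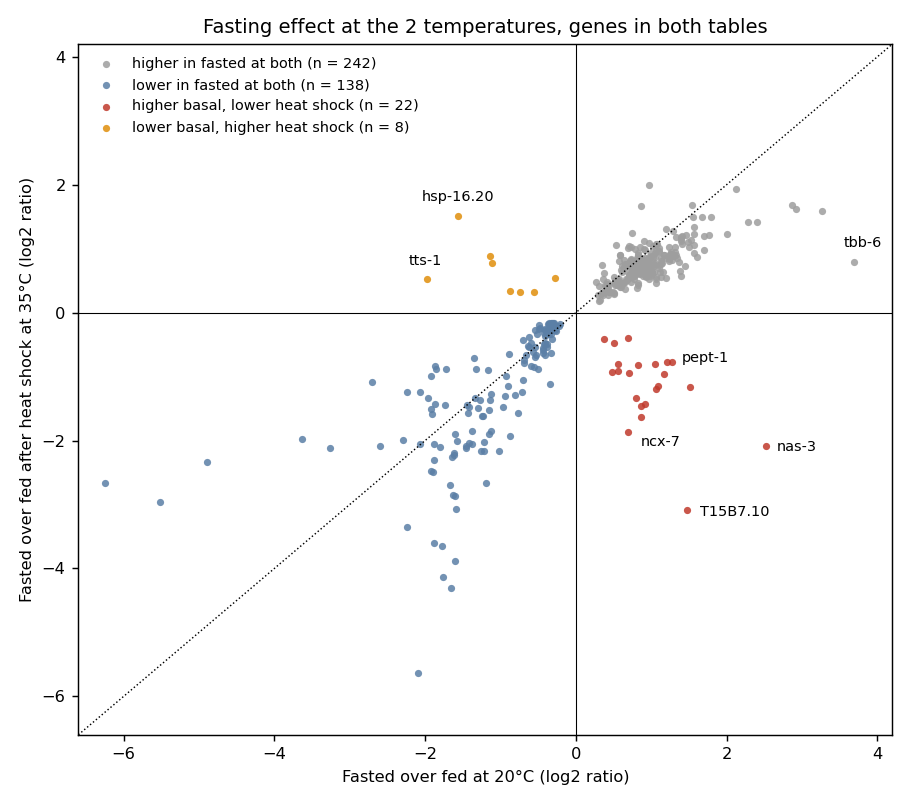
The plot sets the fasted over fed log2 ratio at 20°C (horizontal axis) against that after heat shock at 35°C (vertical axis) for all 410 genes, with 1 point per gene and a dotted line where both are equal. The 22 genes at lower right were higher in fasted worms at 20°C and lower after heat shock, the 8 at upper left the reverse, and tbb-6 lies far to the right of the line.

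Of the 22 genes that were higher in fasted worms at 20°C and lower after heat shock, pept-1 (K04E7.2, WBcel235 chromosome X, 6456687 to 6461767) encodes the intestinal oligopeptide transporter. pept-1 was at 40.8, 25.9, 37.7 and 67.3 CPM in fed and 107, 89.6, 63.2 and 137 CPM in fasted worms at 20°C. After heat shock pept-1 was at 30.5, 16.1, 7.54 and 14.2 CPM in fed and 10.1, 11.1, 9.1 and 9.88 CPM in fasted worms. At 20°C the fasted libraries exceeded the fed ones, except that fed replicate 4 passed the lowest fasted library, and after heat shock the 4 fasted libraries lay close together within the lower part of the fed range. Its log2 ratio was 1.21 at 20°C and -0.77 after heat shock, an interaction of -1.98 (edgeR's quasi-likelihood test, adjusted p = 0.035). This call held in 7 of 16 fits that left out 1 library, and without fed heat shock replicate 1 the interaction was -1.54 (adjusted p = 0.082). Averaged over fed and fasted worms, pept-1 fell with heat by 2.31 on the log2 scale (adjusted p = 2.3e-06).

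spin-1 (C13C4.5, chromosome V, 12114991 to 12117561) belongs to the spinster family of lysosomal transporters. spin-1 was at 9.22, 7.53, 9.23 and 14.9 CPM in fed and 28.3, 26, 17.9 and 26.8 CPM in fasted worms at 20°C. After heat shock spin-1 was at 10.9, 4.03, 3.43 and 4.55 CPM in fed and 3.64, 3.44, 3.47 and 2.89 CPM in fasted worms. Every fasted library exceeded every fed library at 20°C, while after heat shock the fasted values lay within or below the range of the fed ones. The log2 ratios were 1.27 and -0.77, and the mean heat effect was -1.85. ncx-7 (C07A9.11, chromosome III, 9715883 to 9720291) encodes a member of the sodium/calcium exchanger family. ncx-7 was at 7.69, 6.79, 14.4 and 12.5 CPM in fed and 18, 16.5, 11.9 and 20.5 CPM in fasted worms at 20°C. After heat shock ncx-7 was at 6.47, 3.27, 2.23 and 2.93 CPM in fed and 1.07, 0.967, 1.14 and 0.908 CPM in fasted worms. The groups overlapped at 20°C and separated after heat shock, when each fasted library was below the lowest fed library. The interaction of ncx-7 was -2.56 (adjusted p = 0.012), and its mean heat effect of -2.75 was among the strongest falls of the 410 genes, with no overlap between the 8 basal and the 8 heat shock libraries, as in 2.44% of the 410 genes.

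mct-2 (C01B4.9, chromosome V, 2483004 to 2487785), of the monocarboxylate transporter family, had another pattern. mct-2 was at 1.95, 2.33, 2.36 and 2.01 CPM in fed and 8.21, 2.63, 2.2 and 5.01 CPM in fasted worms at 20°C. After heat shock mct-2 was at 8.0, 5.83, 2.51 and 4.66 CPM in fed and 1.58, 2.42, 3.07 and 2.1 CPM in fasted worms. The difference between temperatures was 1.28 on the log2 scale in fed worms and -0.98 in fasted worms, and the mean heat effect was 0.15 (adjusted p = 0.78). The fed and fasted libraries overlapped at both temperatures. gtl-1, a TRPM cation channel of the intestine, had ratios of 0.69 and -0.39, and sup-10, a regulator of a muscle potassium channel complex, 0.86 and -1.63. Averaged over fed and fasted worms, gtl-1 and sup-10 fell with heat by 1.20 and 1.23 on the log2 scale (adjusted p = 7.1e-05 and 0.011). In sup-10, which had 3 to 48 reads per library, the difference between temperatures was 0.01 in fed and -2.48 in fasted worms. In gtl-1 it was -0.66 in fed and -1.75 in fasted worms.

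nas-3 (K06A4.1, chromosome V, 9478164 to 9479604) encodes an astacin metalloprotease and had the widest swing of the 410 genes. nas-3 was at 1.18, 0.918, 2.15 and 2.82 CPM in fed and 8.79, 6.45, 7.96 and 17.8 CPM in fasted worms at 20°C. After heat shock nas-3 was at 3.43, 0.762, 0.343 and 0.314 CPM in fed and 0.419, 0.537, 0.0568 and 0.114 CPM in fasted worms. All 4 fasted libraries were above the fed ones at 20°C, and after heat shock both groups were mostly under 1 CPM, with 1 fed library far above the other 3. The log2 ratio went from 2.52 to -2.08, and the mean heat effect was -2.82 (adjusted p = 0.00048). pcp-3, a prolyl carboxypeptidase-like protein, went from 1.08 to -1.14 with overlapping libraries at both temperatures, and its mean heat effect was -2.27. Fed heat shock replicate 1 stood far above the other fed libraries in pcp-3, which was at 23.1, 6.15, 3.31 and 6.96 CPM in fed worms after heat shock, and without it the interaction went from -2.23 to -1.37. In nas-3 it went from -4.61 to -3.23 without that library, which lost the call (adjusted p = 0.024 and 0.059).

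Among the others of the 22, sptl-3 encodes a serine palmitoyltransferase subunit, ifc-1 an intestinal intermediate filament protein and snt-5 a synaptotagmin. sptl-3 had the most reads of the 22, with group means of 69 ± 7.03 and 89 ± 20.2 CPM (SD, n = 4) in fed and fasted worms at 20°C and 52 ± 13.1 and 39.3 ± 1.86 CPM after heat shock. Its interaction of -0.78 was the smallest of the 22. Heat lowered ifc-1 by 2.0 on the log2 scale (adjusted p = 2.9e-05) and left snt-5 at -0.23 (adjusted p = 0.3). The rest carry sequence names only, such as F55G1.15, C40H1.7, Y48E1B.8, T10G3.3 and ZK512.7, or, like ifbp-1 and mab-31, are less well described, and their interactions ran from -4.57 in T15B7.10, which had at most 2 reads in a fasted heat shock library, to -1.36 in mab-31. Y48E1B.8, ZK512.7, gtl-1 and mab-31 overlap a coding gene on the other strand.

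Summed over the 22, the level was 211 to 377 CPM in fed and 393 to 637 CPM in fasted libraries at 20°C. After heat shock it was 123 to 306 CPM in fed and 106 to 119.4 CPM in fasted libraries. The sums of fed and fasted libraries did not overlap at either temperature, which the choice of these genes by the same comparisons made likely, so nothing is read from it. The fed heat shock libraries spread far more than the fasted ones. Fed heat shock replicate 1 was the highest fed library in 21 of the 22 genes, at a median of 1.35 on the log2 scale above the mean of the other 3. Its mean log2 level over the 22 genes, centred per gene, was 0.70, against -0.82 to -0.48 in the other fed heat shock libraries and -0.15 to 0.75 in the fed libraries at 20°C, so that for these genes it lay within the range of the basal fed libraries. Over the genes of the same direction that fell with heat it was the highest fed heat shock library in 11 of 50. Over the 8 genes of the reverse kind it was at 0.31, among the other fed heat shock libraries (0.29 to 0.54) and above the fed libraries at 20°C (-0.46 to 0.03). Over the 242 genes higher in fasted worms at both temperatures, fed heat shock replicate 1 was at 0.20. There the other fed heat shock libraries were at -0.58 to -0.37 and the fed libraries at 20°C at -0.82 to -0.30. The fasted heat shock libraries were at -0.04 to 0.71, a range that held it. Over the 138 lower genes it was at 0.16, among the other fed heat shock libraries (0.02 to 0.76). Whether the library holds material of another group was not tested. At 20°C, fed replicate 4 was the highest in 18 of the 22 and fed replicate 2 the lowest in 18. Without fed heat shock replicate 1 the median interaction of the 22 genes went from -2.08 to -1.53, and the number that passed the interaction test went from 11 to 3.

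**Figure D2:**
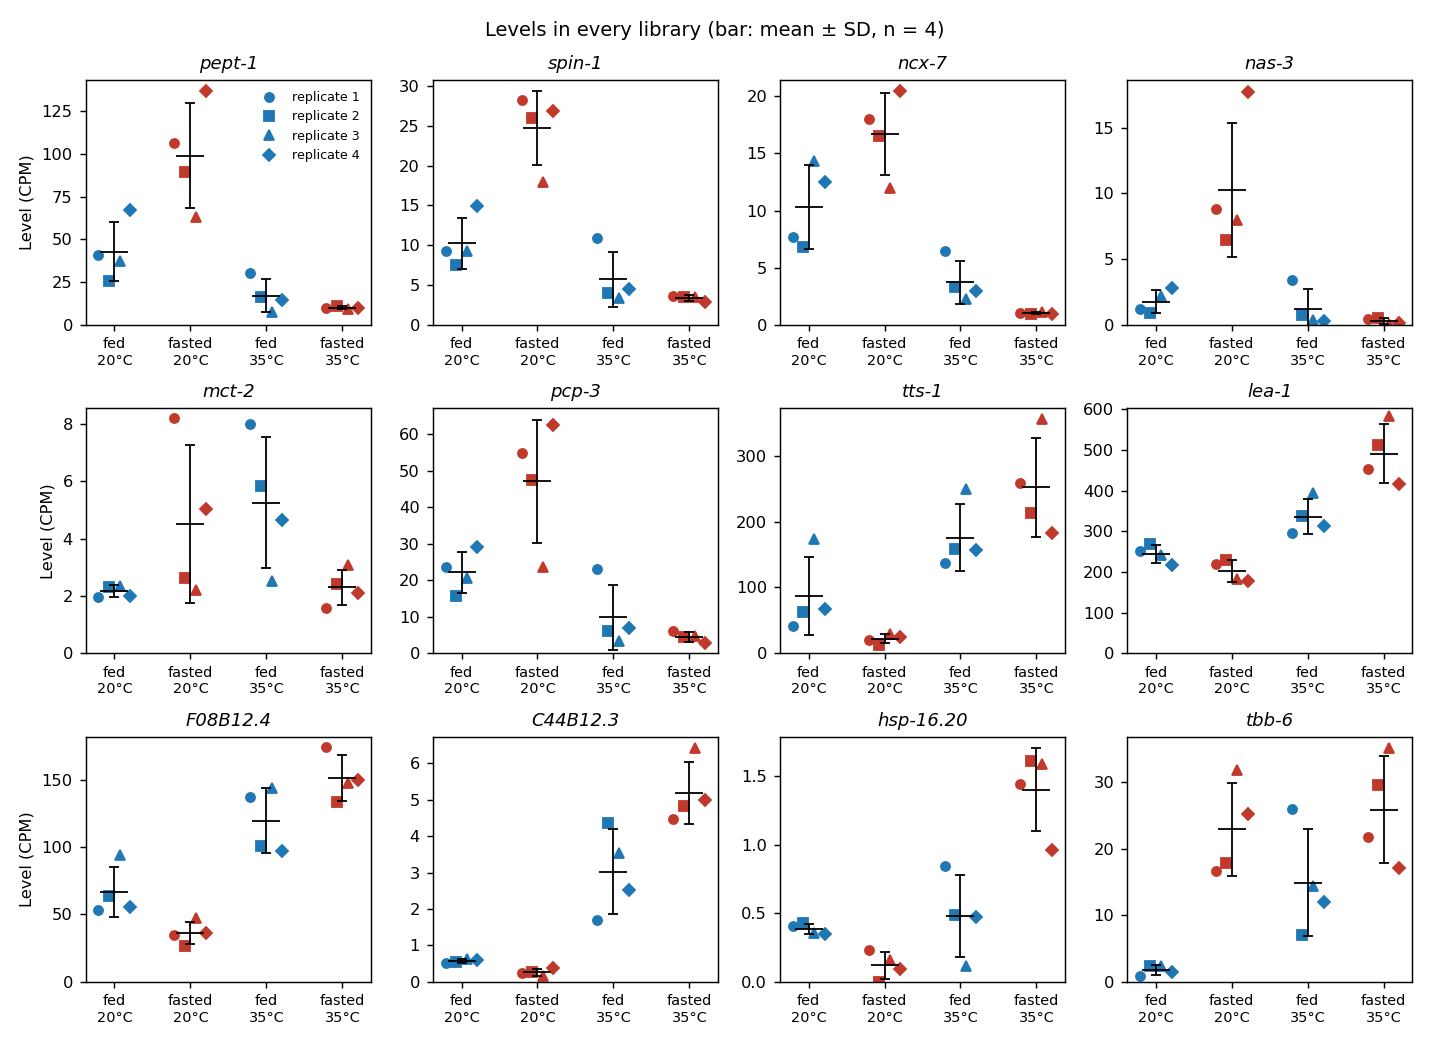
Each panel plots the level of 1 gene in CPM (linear axis) in the 4 groups, with blue for fed, red for fasted, a marker shape per replicate number, and bars for the mean ± SD (n = 4). In pept-1, spin-1, ncx-7, nas-3 and pcp-3 the fasted group is the highest of the 4 at 20°C and the lowest after heat shock, and in tts-1, lea-1, F08B12.4, C44B12.3 and hsp-16.20 it is the lowest at 20°C and the highest after heat shock.

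Of the 8 genes lower in fasted worms at 20°C and higher after heat shock, tts-1 (F09E10.11, chromosome X, 1504131 to 1504841) is a long noncoding RNA known for its high level in long-lived mutants. tts-1 was at 42.1, 63.4, 174 and 67.4 CPM in fed and 20.9, 12.9, 29.7 and 24.6 CPM in fasted worms at 20°C. After heat shock tts-1 was at 137, 159, 250.2 and 157 CPM in fed and 258, 213, 356 and 183 CPM in fasted worms. At 20°C every fasted library was below every fed one, and after heat shock the groups overlapped with the fasted mean higher. The log2 ratio went from -1.98 to 0.52, an interaction of 2.5 (adjusted p = 0.02, and 0.055 without fasted heat shock replicate 3), and heat raised tts-1 by 2.27 (adjusted p = 4.8e-06). The level after heat shock exceeded that at 20°C in fed worms by 1.01 and in fasted worms by 3.52 on the log2 scale.

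hsp-16.20 (F08H9.3, chromosome V, 14461943 to 14462768) belongs to the small heat shock protein family and was low throughout. Its libraries held 8, 7, 7 and 7 reads in fed and 6, 0, 3 and 2 reads in fasted worms at 20°C. After heat shock hsp-16.20 had 20, 9, 2 and 9 reads in fed and 31, 30, 28 and 17 reads in fasted worms. The fed and fasted libraries did not overlap at either temperature once scaled to CPM. The log2 ratios were -1.57 and 1.51, and the interaction of 3.08 missed the threshold (adjusted p = 0.051). At so few reads a fitted ratio depends on the prior count of the fit.

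A further 3 genes of this kind were chosen after their values were seen. lea-1, a late embryogenesis abundant protein tied to desiccation tolerance, was at 252, 269, 241 and 218 CPM in fed and 219, 230.4, 182 and 178 CPM in fasted worms at 20°C. After heat shock lea-1 was at 296, 338, 395 and 314 CPM in fed and 452, 512, 583 and 417 CPM in fasted worms. The fasted heat shock libraries were all above the fed ones, while the groups overlapped at 20°C, with ratios of -0.28 at 20°C and 0.55 after heat shock. Part of lea-1 overlaps acl-2 on the other strand. F08B12.4, with no described function, had ratios of -0.88 and 0.34 and rose with heat by 1.46, and C44B12.3 had -1.11 and 0.78 and rose by 3.33, the largest rise of the 8. C44B12.3 had few reads at 20°C, with 10, 9, 12 and 12 in fed and 6, 5, 3 and 8 in fasted worms. The remaining W01F3.2, Y54G2A.11 and F59C6.16 had interactions of 1.06, 0.88 and 2.02.

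The mean effect of heat, which the choice of genes did not use, separated the direction groups. Over the 410 genes, 116 passed the test for the mean heat effect (28.3% of the genes tested), 46 higher (11.2%) and 70 lower (17.1%) at 35°C. Of the 22 genes higher in fasted worms at 20°C only, 20 fell with heat on this mean (90.9%) and none rose, with a median of -1.43 on the log2 scale. All 8 genes of the reverse kind rose on it, with a median of 1.19. The exceptions among the 30 were mct-2 and snt-5. In fed worms alone the medians were -0.46 in the 22 and 0.42 in the 8, against -2.52 and 1.98 in fasted worms. Among genes called on the mean, sup-10, F47G3.1 and T15B7.10 did not fall in fed worms (0.01, 0.16 and 0.36). F59C6.16 did not rise there (-0.12). Among the genes with the same direction, 37 of the 242 higher ones rose and 13 fell (median 0.12), and of the 138 lower ones 1 rose and 37 fell (median -0.43). Without fed heat shock replicate 1, 20 of the 22 fell and 7 of the 8 rose, F59C6.16 being the exception, against 17.1% and 9.02% of all genes. This comparison crosses the tables, whose libraries were set on 1 scale by the reads of the whole library.

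In 18 of the 22 genes the group means fell in the order fasted at 20°C, fed at 20°C, fed after heat shock and fasted after heat shock. In 7 of the 8 genes the order was the reverse. The grouping itself fixed the order of fasted and fed means at each temperature. Only the order of fed at 20°C and fed after heat shock was free, so these counts describe that comparison alone. The difference between temperatures was larger in size in fasted worms in 21 of the 22 genes (median log2 -2.52 against -0.46 in fed). The same held in 8 of the 8 (median 1.98 against 0.42). It follows wherever the interaction and the mean heat effect have the same sign, so it adds nothing to those results. The exception was mct-2, with an interaction of -2.27 and a mean heat effect of 0.15. All 4 fasted libraries lay apart from all 4 fed ones in 10 of the 22 genes at 20°C, in 6 after heat shock and in 2 at both. Of the 8 genes, 5 were apart at 20°C, 3 after heat shock and 2 at both. Over all 410 genes, 41.5% were apart at 20°C and 19.8% after heat shock. Among the genes of the same direction, 14 of the 242 and 10 of the 138 were apart at both. Since the tables were chosen by these comparisons, nothing is read from any of these counts or shares.

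**Figure D3:**
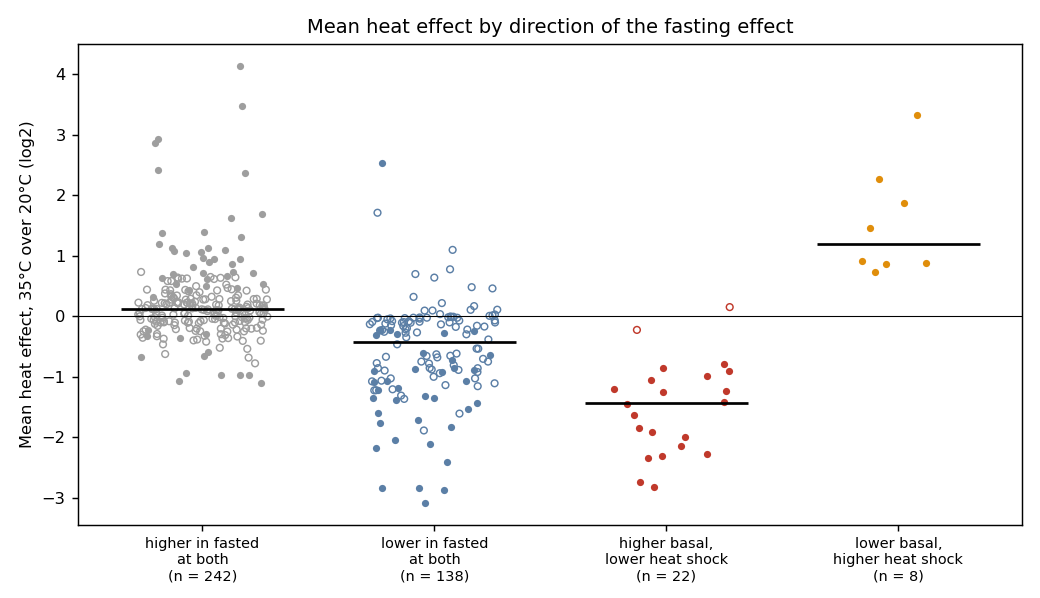
The plot gives the mean heat effect (log2 of 35°C over 20°C, averaged over fed and fasted worms) of each gene by direction group, with filled points for genes at an adjusted p under 0.05, open points for the others and a bar at the median. The medians are 0.12 and -0.43 in the groups with the same direction, -1.43 in the 22 genes and 1.19 in the 8 genes.

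The interaction itself passed the test in 16 of the 410 genes (3.90% of the genes tested), 4 positive (0.976%) and 12 negative (2.93%), and 33 had an unadjusted p under 0.05 (8.05%). Of the 16 genes, 15 had opposite directions, which the choice of genes made likely. The p-values were adjusted over the 410 genes, and adjusted over all genes of either table none passed, with the same 33 at an unadjusted p under 0.05.

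tbb-6 (T04H1.9, chromosome V, 12261804 to 12263368), a beta-tubulin gene of worms, was the sole gene with the same direction that passed. tbb-6 was at 0.871, 2.39, 2.41 and 1.41 CPM in fed and 16.6, 17.9, 31.7 and 25.2 CPM in fasted worms at 20°C. After heat shock tbb-6 was at 26, 7.02, 14.3 and 12 CPM in fed and 21.8, 29.5, 35.1 and 17 CPM in fasted worms. At 20°C every fasted library exceeded every fed library, whereas after heat shock fed replicate 1 stood among the fasted libraries. The log2 ratio was 3.69 at 20°C and 0.80 after heat shock, an interaction of -2.90 (adjusted p = 0.012), and -2.48 without fed replicate 1 (adjusted p = 0.023). The difference between temperatures was 3.07 on the log2 scale in fed and 0.18 in fasted worms, and the mean heat effect was 1.62 (adjusted p = 0.00026). Its neighbour ssp-35, of the sperm-specific ssp family, lies on the other strand and shares 1 base with the end of tbb-6. ssp-35 had ratios of 2.92 and 1.63 and a mean heat effect of 2.93, from 0, 0, 0 and 3 reads in the fed and 12, 8, 5 and 4 reads in the fasted libraries at 20°C and 31, 36, 25 and 34 reads in the fasted libraries after heat shock.

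Genes with neuropeptide names, many of which encode the precursors of short signalling peptides of neurons, were the largest list among the genes with the same direction. Of 148 annotated flp, nlp and ins genes, 61 were in the basal table, 42 in the heat shock table and 29 in both, and all 29 were higher in fasted worms at both temperatures, beside 242 of all 410 genes. The median log2 ratio was 1.06 at 20°C and 0.77 after heat shock, beside 0.63 and 0.47 over all 410 genes. Over the 242 genes higher at both temperatures, which include the 29, the medians were 0.88 and 0.75. flp-1 had ratios of 1.24 and 1.02, flp-28 1.0 and 0.63, nlp-6 1.15 and 0.63, and nlp-20, with the largest interaction of the list, 1.19 and 0.54. None of the 29 passed the interaction test, beside 3.90% of the 410 genes. ins-4, an insulin-like peptide gene, was the only member that passed the test for heat, at 1.06 (adjusted p = 0.021), beside 28.3% of the 410.

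Summed over the 29 genes, the level was 110.2, 107, 186 and 185 CPM in fed and 265, 186, 447 and 285 CPM in fasted libraries at 20°C. After heat shock the 29 genes summed to 278, 153, 174 and 129.9 CPM in fed and 321, 346, 363 and 198 CPM in fasted libraries. Fed heat shock replicate 1 stood above fasted replicate 4, and the remaining 3 fed and 3 fasted libraries did not overlap, which the filter on the tables made likely. The ratio was smaller after heat shock in 27 of the 29 genes. Without fed heat shock replicate 1 this was so in 10 of the 29 genes, without fasted heat shock replicate 4 in 19, and without fasted basal replicate 3 in 12. The same held for all 242 genes higher in fasted worms, in which the ratio was smaller after heat shock in 191, beside a lower value after heat shock in 69.5% of all 410 genes, against 106, 131 and 113 without each of these libraries. The direction of that difference thus changed with 1 library, and no smaller effect after heat shock is read from it.

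**Figure D4:**
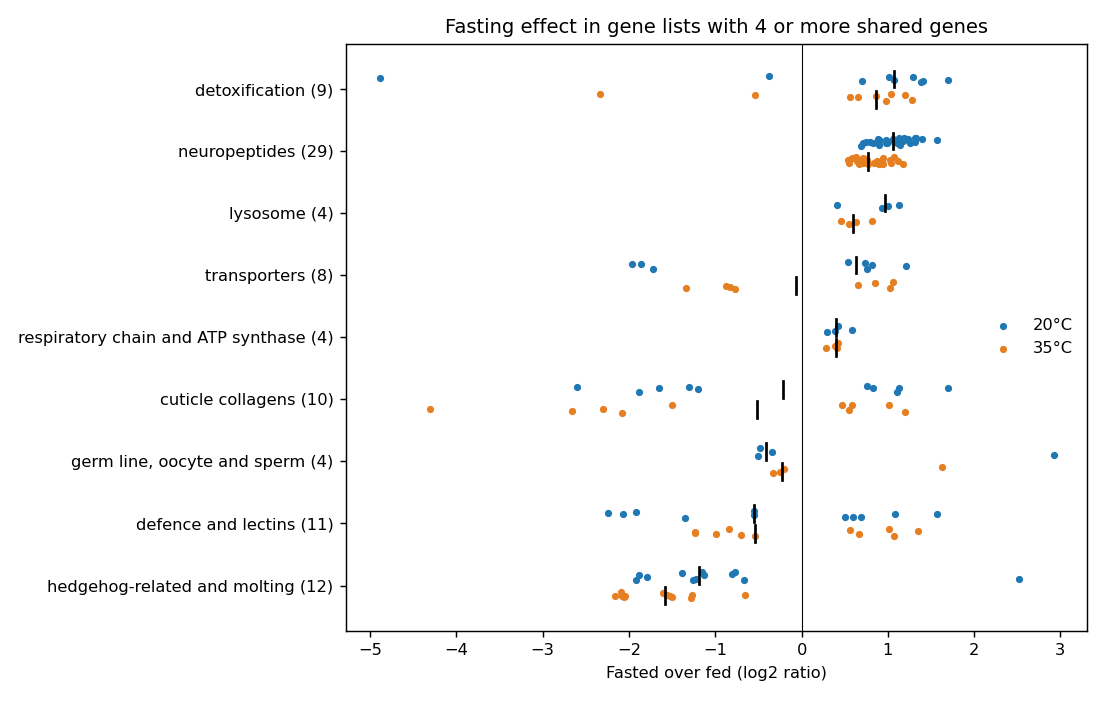
The plot gives the fasted over fed log2 ratio of each member of the gene lists with 4 or more genes in both tables, in blue at 20°C and in orange after heat shock at 35°C, with a bar at each median and the number of genes after the name. Under the scaling used, all neuropeptide, lysosome and respiratory chain genes lie to the right of 0 at both temperatures (cyc-2.1 does not under TMM scaling), and all hedgehog-related and molting genes but nas-3 at 20°C lie to the left.

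Genes of the molt and of the hedgehog-related family, many of which act in the skin as the cuticle is renewed, formed a further list. Of its 141 annotated genes 22 were in the basal table, 29 in the heat shock table and 12 in both. Of the 12 genes 11 were lower in fasted worms at both temperatures, beside 138 of all 410 genes, and the other was nas-3. The median log2 ratio was -1.19 at 20°C and -1.59 after heat shock. Fed replicate 2 at 20°C stood apart, with a mean log2 level over the 12 genes, centred per gene, of -0.74 against 0.70 to 1.83 in the other fed libraries and -0.25 to 0.52 in the fasted ones. The median interaction of the 12 was -0.38, and -0.08 without that library or without fed heat shock replicate 4. noah-1, which encodes a protein of the outer cuticle precursor, had ratios of -0.77 and -1.56, and ptr-4, a patched-related gene, -1.26 and -2.17, with 3.69, 0.428, 1.54 and 7.5 CPM in the fed libraries at 20°C. mlt-11, a gene needed for molting, had -1.23 and -1.61, and the astacin gene nas-20 had -1.93 and -1.51. Over the list the summed level was 55.9 to 139 CPM in fed and 44.3 to 72.9 CPM in fasted libraries at 20°C, and the groups overlapped. After heat shock the list summed to 56.2 to 93 CPM in fed and 16.9 to 38.8 CPM in fasted libraries, which did not overlap. The filter on the heat shock table made this likely, and nothing is read from it. Other genes lower at both temperatures with large ratios were acn-1, an ACE-like protein needed for molting (-1.38 and -1.85), the lipocalin-related gene lpr-3 (-1.62 and -2.19), F30H5.3 (-1.67 and -2.70) and Y65B4BL.1 (-1.44 and -1.44). In acn-1, lpr-3 and F30H5.3 fed replicate 2 was likewise the lowest fed library at 20°C.

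Cuticle collagens are structural proteins of the worm's outer layer. Of 198 annotated genes 10 were in both tables, 5 higher and 5 lower in fasted worms at both temperatures. The higher ones included col-19, an adult-stage collagen (1.69 and 1.20), and col-42 (1.12 and 0.55), with col-140 (0.82 and 0.47) the only one that rose with heat (adjusted p = 0.046). The lower ones included dpy-7, a furrow collagen made before each molt (-1.20 and -2.66), and col-77 (-1.65 and -4.30), and both fell with heat, by 1.61 and 2.88 on the log2 scale. col-77 had 0, 1, 0 and 1 reads in the fasted heat shock libraries, so that its ratio there depends on the prior count of the fit. Reads for collagens with near-identical copies may be split between them. Fed libraries at 20°C varied widely in the lower ones, as in dpy-7, which was at 7.12, 0.49, 2.72 and 8.55 CPM there. Of the 5 markers of the hypodermis 4 were in both tables, col-19 and col-140 higher and dpy-7 and wrt-2 lower, so that the markers of that tissue moved in both directions.

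Enzymes of detoxification numbered 9 of 191 annotated genes, 7 higher and 2 lower in fasted worms at both temperatures. The UDP-glucuronosyltransferase genes ugt-8 (1.29 and 1.28) and ugt-19 (1.69 and 0.98) and the cytochrome P450 gene cyp-33C8 (1.38 and 0.66) were among the higher, and cyp-37B1 (-4.89 and -2.34) was lower from few reads. With heat ugt-8 rose by 1.09 while ugt-19 fell by 1.11 on the log2 scale (adjusted p = 0.033 and 0.0011). Defence and lectin genes gave 5 higher and 6 lower of 11, with irg-4 (-1.92 and -0.99), clec-67 (-1.35 and -0.70) and clec-210 (-2.07 and -1.24) on the lower side.

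The list of 122 annotated transporter genes had 8 in both tables, 4 higher and 3 lower in fasted worms at both temperatures and pept-1 with opposite directions. spin-1, ncx-7 and mct-2 were not on that list. swt-6, a sugar transporter of the SWEET family, was at 8.15, 13, 26.4 and 8.81 CPM in fed and 4.07, 2.19, 6.12 and 3.09 CPM in fasted worms at 20°C, and its ratio was -1.86 there and -0.83 after heat shock. slc-9B.1, of the sodium/proton exchangers, had -1.73 and -0.88.

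All 4 lysosomal genes in both tables were higher in fasted worms. cpr-5 and cpr-4, which encode cathepsin B-like proteases, had ratios of 1.13 and 0.81, and 0.93 and 0.55, and vha-5, of the vacuolar proton pump, 1.01 and 0.64. The 4 genes of the respiratory chain and ATP synthase had close ratios at both temperatures, such as ucr-2.1 of complex III (0.39 and 0.42), cox-6C of complex IV (0.42 and 0.38) and asg-2 of the ATP synthase (0.58 and 0.41), while cyc-2.1 (0.29 and 0.28) took opposite directions under TMM scaling over the shared genes. Of 135 annotated translation genes, 6 were in the basal table, 70 in the heat shock table and 2 in both, so these 2 do not describe the list. They were the ribosomal protein genes rps-27A (0.41 and 0.43) and rpl-10a (0.42 and 0.41), higher in fasted worms at both temperatures. Their interactions were 0.02 ± 0.21 and -0.01 ± 0.21 (SE). gpd-2, a glycolytic dehydrogenase gene, had 0.65 and 0.37, the troponin gene unc-27 0.58 and 0.45, and of the beta-oxidation genes acdh-9 was higher (0.51 and 0.46) and acox-1.2 lower (-1.34 and -1.33). The germ line genes egg-5 (-0.48 and -0.25), egg-4 (-0.34 and -0.21) and glh-4 (-0.51 and -0.33) were lower, with ssp-35 the only higher one of 4. No vitellogenin, fat synthesis, nuclear hormone receptor or methionine cycle gene was in both tables.

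Among genes with a mean of at least 50 normalized counts, the 4 largest rises with heat were in genes that were also higher in fasted worms at both temperatures. F19B2.5 (chromosome V, 20162648 to 20163732) was at 16.9, 21.7, 30.3 and 21.3 CPM in fed and 55, 40.8, 49.7 and 51.4 CPM in fasted worms at 20°C. After heat shock F19B2.5 was at 271, 397, 550.1 and 531 CPM in fed and 637, 874, 1116 and 522 CPM in fasted worms. Fasted libraries were apart from fed ones at 20°C only, and all heat shock libraries were above all basal ones. The ratio was 1.13 at 20°C and 0.85 after heat shock, and the mean heat effect 4.14 (adjusted p = 3.7e-11). cdd-1, a cytidine deaminase gene, was at 3.13, 3.37, 4.98 and 4.33 CPM in fed and 5.42, 5.77, 7.07 and 5.29 CPM in fasted worms at 20°C. After heat shock cdd-1 was at 15.9, 16, 22.7 and 20.9 CPM in fed and 24.9, 32.1, 47 and 28.2 CPM in fasted worms, and the groups were apart at both temperatures. Y94H6A.10 (1.10 and 0.70) and the lactamase-domain gene lact-4 (0.56 and 0.51) rose with heat by 3.47 and 2.87. The interactions of these 4 genes lay between -0.40 and 0.23, with an SE of 0.33 to 0.43.

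F19B2.5, cdd-1 and Y94H6A.10 are among 5 genes that the study singled out on these samples as changed alike at both temperatures. The study looked for them among known targets of HSF-1 only, not among all genes. Their direction is not independent evidence. The other members are Y22D7AL.10, a mitochondrial chaperonin gene (0.31 and 0.19), and egg-5, and their mean heat effects were -0.23 and 0.11 (adjusted p = 0.04 and 0.49). Under TMM scaling over the shared genes Y22D7AL.10 was no longer higher at both temperatures. Of 57 annotated heat shock protein and co-chaperone genes, 9 were in the basal table, 16 in the heat shock table and 2 in both. hsp-25 was higher in fasted worms at both (0.42 and 0.43) and rose with heat by 0.66 (adjusted p = 0.00041), and hsp-16.20 is described above. Large ratios at both temperatures also appeared in genes of unknown role, among them nspe-1 (2.40 and 1.42), F41E6.15 (2.0 and 1.23), F41B4.3 (1.46 and 1.21) and Y8A9A.2 (1.56 and 1.5). nspe-1 is a member of a family of similar small genes, whose reads may be split.

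The direction groups also had different median gene lengths, a difference that was not tested. The median length in the files was 792.5 bases in the 242 higher genes, 1658 in the 138 lower ones, 1702 in the 22 genes and 628 in the 8, beside 1125 over all 410. Of the marker genes of 8 tissues, none for intestine, body wall muscle, oocyte, sperm or embryo was in both tables, and pqn-75 for pharynx and flp-1 for neurons were higher in fasted worms. The part of tissue makeup in the fasting ratios was not tested.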

How the data were processed

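Per the deposited notes and the study's methods, the authors purified poly(A) RNA, aligned paired-end reads with HISAT2 2.0.5 to WBcel235 and made raw counts per gene with featureCounts 1.5.0-p3. The authors' normalized counts, a signal, are counts divided by a DESeq2 size factor per library and table (DESeq2 version not given in the sources used here), and their deposited FPKM values are counts per gene length and library reads. The log2 fold changes and p-values in the deposited tables are the authors' own comparisons and were not used, except that the p-values were read to see on what the tables were filtered. No other sample column was present (0 left out).

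Library reads were recovered from counts and FPKM, and the authors' size factors were rescaled so that each table had the geometric mean of its library reads. Counts of the 410 genes in all 16 libraries were fitted with 1 mean per group by edgeR's quasi-likelihood test (edgeR 4.0.16, R 4.3.3), and a gene was called at a p under 0.05 after Benjamini-Hochberg adjustment across these 410 genes. The basal and heat shock tables were normalized separately by the authors, so the heat contrast rests on the raw counts and on library reads. On simulated data of 410 genes, the test found 12%, 22%, 64% and 80% of interactions made 1.5-, 2-, 3- and 4-fold, with 0 false calls, and 52%, 72%, 98% and 98% of such mean heat effects, with 2 false calls. Also run were DESeq2 1.42.0, limma 3.58.1 with FPKM on the log2 scale and pseudocounts of 1 and 0.1, other scalings, a mean of at least 10 counts, replicate blocks, adjustment over either table, a fold of 1.5, and each library left out. The heat calls among the opposite genes under these alternatives, and the lists without single libraries, were chosen after seeing the data.

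The members, the 18 gene lists and the markers of 8 tissues were chosen with earlier results of these data known. Named are, among genes with a mean normalized count of at least 50, the 12 opposite genes with the largest interaction, the genes of the same direction that passed the interaction test, 5 genes per direction with the largest ratios at both temperatures and 4 per direction of the heat effect, as well as the 3 genes of each list, or fewer, at the lowest interaction p and 5 genes the study named. Chosen after seeing their values were gtl-1, sup-10, sptl-3, ifc-1, snt-5, lea-1, F08B12.4, C44B12.3, T15B7.10, mab-31, ifbp-1, W01F3.2, Y54G2A.11, F59C6.16, mlt-11, col-140, egg-4, cyc-2.1, flp-1 and ins-4. Coordinates are those of the files and differ from the Ensembl annotation at hand for all but 15 genes. Figures were drawn with Python 3.11.15, numpy 2.4.6, pandas 2.3.3 and matplotlib 3.10.9.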

Additional observations from a re-analysis of the deposited data

Results flagged for a closer look

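In 72 groups of 4 libraries (18 genes), 5 held a library whose gap to the nearest other exceeded Dixon's bound on its share of the group's range, which chance passes in about 1 of 20 groups. Fed heat shock replicate 1 was the highest library in 4 of these, at 3.43 CPM in nas-3, 10.9 CPM in spin-1, 8.46 CPM in T10G3.3 and 22.6 CPM in ZK512.7. Fasted heat shock replicate 4 was the lowest in Y94H6A.10, at 535.5 CPM. The same fed library was the highest of its group in 21 of the 22 genes with a higher level in fasted worms at 20°C only. Over the genes of the same direction it was the highest fed library in 11 of 50 that fell with heat and in 22 of 38 that rose, and fasted heat shock replicate 4 was the lowest fasted library in 31 of these 38.

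The fasting effect differed between the temperatures by the interaction test in 11 of the named genes. The differences of the log2 ratio, heat shock minus basal, were -2.56 in ncx-7, -4.61 in nas-3, -2.05 in spin-1, -2.35 in F55G1.15, -1.98 in pept-1, -2.68 in Y48E1B.8, -2.27 in mct-2, -2.12 in T10G3.3, -2.33 in C40H1.7, 2.5 in tts-1 and -2.90 in tbb-6. All but tbb-6 had opposite signs at the 2 temperatures, which the filter on the tables made likely. Without fed heat shock replicate 1 the interaction kept an adjusted p under 0.05 in ncx-7 (-2.15), spin-1 (-1.53), F55G1.15 (-1.83), tts-1 (2.40) and tbb-6 (-2.48), and not in pept-1 (-1.54, adjusted p = 0.082), nas-3 (-3.23, adjusted p = 0.059) or the other 4.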

How the results depend on the processing

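The interaction was called in 16 genes, and the count rested on the test and on single libraries. DESeq2 called 27, a replicate block over all libraries 9, a replicate block within each temperature 13, and 0 were called when adjusted over the genes of both tables together, with 33 at an unadjusted p under 0.05. Leaving out 1 library gave 2 to 19 calls, with the lowest, 2, without fasted heat shock replicate 3, 3 without fed basal replicates 2 or 3 or fasted basal replicate 4, 4 without fed basal replicate 1 or fasted heat shock replicate 4, 5 without fasted basal replicate 1, and 6 without fed or fasted heat shock replicate 1. The other alternatives called 15 to 19. limma on log2(FPKM + 1) split its calls into 6 positive and 9 negative, against 4 and 12.

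The replicate numbers were not taken as pairs. Deviations of same-numbered fed and fasted libraries correlated at 0.284, 0.0681, 0.399 and 0.0551 at 20°C and at 0.369, 0.0166, 0.198 and 0.431 after heat shock across 397 genes, and 2 of the 4 numbers at each temperature matched their own number best.

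The mean heat effect was called in 81 to 123 genes without single libraries (116 in all) and in 93 to 129 elsewhere. Among the 30 opposite genes, 24 to 28 were called without single libraries and 26 to 28 elsewhere. The number of opposite genes was 30 without each library and 32 under TMM, where cyc-2.1 and mak-2 joined, and since the filter on the tables fixes it, this is no sign of stability. Of 61 named genes, 11 had a called interaction and none of these changed sign, which the filter on the tables fixes for all of them but tbb-6, while 20 of the other 50 changed sign under some alternative. ncx-7 and tbb-6 passed in 26 of 27 alternatives, tts-1 in 25, and C40H1.7 in 9. For ncx-7, tts-1 and C40H1.7, which had opposite directions, the filter also made such calls likely. Their counts are a description and no sign of stability. With 4 libraries per group, interactions of 2-fold or less were mostly missed on simulated data, whose genes had not passed the filter on the tables.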
